A study of Drosophila melanogaster with 3 samples.

Results

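The sites described here are 5875 Stwl peaks on the X chromosome of Drosophila melanogaster that the pooled peak list of the study holds and its reproducibility-filtered list does not. They were chosen by this absence: a peak of the pooled list on the X is a member when the list filtered by the irreproducible discovery rate (IDR) holds no row with the same start, end and summit. The pooled list holds 30000 peaks, of which 7242 lie on the X. In the whole list 22759 peaks, or 75.9%, lie outside the IDR list. Since the IDR list is the strongest 7241 peaks of the pooled list by signal value, membership was selected on signal, and signal values and ranks are given below as a description with no test.

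The DNA bound by Stwl was recovered by chromatin immunoprecipitation and sequenced (ChIP-seq). The embryos were taken whole, were aged 0 to 10 hours and came from a transgenic fly line that stably carries Stwl with GFP at its C-terminus, and the antibody was against GFP. The study has 1 group of 3 biological replicates and a control library, and no condition to compare, so the X was set against the autosomal arms 2L, 3L and 3R within the same lists. The signal is an average over all cell types of the embryo, and the sex of the embryos was not recorded. It reports the tagged protein of 1 transgenic line, and the promoter that drives the transgene is not given in the sources used here.

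Stwl, encoded by stonewall, is a DNA-associated protein with MADF and BESS domains that is known for its role in female germline stem cells and oogenesis. The X of flies is present in a single copy in males, where the dosage compensation complex, built with the RNAs roX1 and roX2 and the acetyltransferase Mof, raises its transcription. In Drosophila the X is also known to carry more short simple repeats than the autosomes. IDR compares the ranks of peaks between replicates and keeps those that rank reproducibly. Here the IDR list is the strongest part of the pooled list, so a peak below the threshold is one of lower pooled signal. It can be a weak site or noise.

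Some traits of the libraries touch the results. The scale of the signal values differs between lists, each replicate list holds 30000 peaks whatever its enrichment, and read depth is unknown. The list of replicate 3 was closest to the pooled list: a summit of replicate 3 lay within 150 bp of 73.1% of the X members, against 40.7% for replicate 1 and 42.6% for replicate 2. Replicate 2 stood apart in composition. Of its X peaks away from IDR summits, 3.20% had the summit in a coding exon, against 9.29% and 7.32% in replicates 1 and 3, and the 201 bp around the summits averaged 37.3% G+C, against 41.6% in both of the others. The autosomal arms of replicate 2 showed the same shift, with 4.34% in coding exons and 37.0% G+C.

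The threshold fell in a smooth stretch of the ranking. The last X peaks inside it were in the 3′ UTR of shakB, a gap junction gene, with a signal value of 194.5 at rank 7238, and in an exon of the antisense RNA asRNA:CR44841 within S6KL, at 194.6 and rank 7234. The first X peaks outside it lay between genes near CG12507 and in an intron of AMPdeam, which encodes AMP deaminase, both at 193.7 and at ranks 7255 and 7256. The stronger part of the members, used below as a check, runs to rank 18620. The peaks just inside had a summit within 150 bp in all 3 replicate lists, and those just outside in 2 of the 3. The members' signal values ran from 46.8 to 194, with a median of 68.7, and their −log10 q-values from 0.294 to 3.74, with a median of 0.626.

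The sequences at the strongest recurrent members that lie in introns or between genes are shown first, because they give the range of bases that such sites hold. A member is called recurrent when a summit lies within 150 bp in all 3 replicate lists. Each line is the plus strand of the Release 6 genome (dm6), 5′ to 3′, 101 bp centred on the summit, taken from RefSeq. Capitals mark matches, on either strand, to the 12 motifs searched: the CA repeat CACACACA in the Drak intron, the A tract AAAAAAAA in the CG44422 intron and TATATATA in the mew intron. Upstream of Ten-a they mark GGTCACACT, the core promoter Motif 1 that M1BP is known to bind, and CGATA on both strands, from sites of the insulator-associated protein BEAF-32. The windows near disco, in nAChRalpha7 and in waw and bbx hold no match, and the G+C of the windows ranged from 19.8% to 53.5%.
Drak intron, chrX:11520388-11520488: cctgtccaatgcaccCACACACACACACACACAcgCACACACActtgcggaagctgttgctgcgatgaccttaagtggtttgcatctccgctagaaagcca
CG44422 intron, chrX:11298645-11298745: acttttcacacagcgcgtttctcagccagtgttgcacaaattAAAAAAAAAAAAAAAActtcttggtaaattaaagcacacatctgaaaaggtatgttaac
disco intergenic, chrX:16207962-16208062: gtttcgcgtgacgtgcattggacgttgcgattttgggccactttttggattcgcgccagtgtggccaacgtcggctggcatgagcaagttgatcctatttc
Ten-a upstream, chrX:12040378-12040478: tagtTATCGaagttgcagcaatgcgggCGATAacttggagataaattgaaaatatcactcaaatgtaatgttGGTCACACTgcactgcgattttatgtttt
mew intron, chrX:13227237-13227337: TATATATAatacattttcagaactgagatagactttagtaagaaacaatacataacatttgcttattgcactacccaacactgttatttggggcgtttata
nAChRalpha7 intron, chrX:19338967-19339067: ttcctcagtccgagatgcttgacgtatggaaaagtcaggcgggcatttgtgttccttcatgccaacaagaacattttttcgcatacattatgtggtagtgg
waw and bbx intron, chrX:21366513-21366613: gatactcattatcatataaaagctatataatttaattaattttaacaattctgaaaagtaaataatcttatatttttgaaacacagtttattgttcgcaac

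The strongest members outside UTRs with a GA repeat or a CA repeat are shown next, because both repeats were more frequent at X members than in windows tiling the X. GAGAGAGA is the core of sites known for GAGA factor and CLAMP, a protein that helps recruit dosage compensation to the X. The first line lies within the span of Ten-a near the non-coding RNA gene CR32658, with a signal value of 188.2 and a match in 2 replicate lists. The second lies nearest to a start site of Nep1, which encodes a neprilysin peptidase, at 178.1 and in all 3 lists. It lies in an intron and is labelled by that nearest start site, as its host gene was not recorded. The third is the AMPdeam member just outside the threshold, and the other member chosen for its CA repeat is the Drak intron site above. Capitals mark the repeats and, near Nep1, a CGATA.
Ten-a intron, chrX:12090440-12090540: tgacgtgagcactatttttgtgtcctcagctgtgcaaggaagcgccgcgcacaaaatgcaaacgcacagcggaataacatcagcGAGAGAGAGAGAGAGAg
Nep1 intron, chrX:6132809-6132909: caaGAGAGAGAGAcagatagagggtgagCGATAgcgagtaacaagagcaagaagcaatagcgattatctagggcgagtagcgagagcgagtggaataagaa
AMPdeam intron, chrX:13844385-13844485: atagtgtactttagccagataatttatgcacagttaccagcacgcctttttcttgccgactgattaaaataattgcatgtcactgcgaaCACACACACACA

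The X held more of the weak peaks than of the strong ones. Of its pooled peaks, 81.1% lay below the threshold, against 77.7% on 2L, 77.0% on 3L and 70.3% on 3R. The X carried 18.9% of the IDR list and 25.8% of the peaks outside it. The share changed most within the strongest peaks: 13.0% of the first 2500 ranks of the pooled list lay on the X (95% Wilson interval 11.7 to 14.3, counting error only), 22.5% of ranks 5001 to 7500 and 27.1% of ranks 27501 to 30000. All 3 replicate lists began at 12.8% to 14.1% and stood at 22.0% to 22.7% in ranks 5001 to 7500. Beyond the threshold they parted, and the last 2500 ranks of replicates 1, 2 and 3 held 23.4%, 22.7% and 26.6% X peaks. The pooled list was thus above each replicate list in its last 2500 ranks, and closest to replicate 3.

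**Figure D1:**
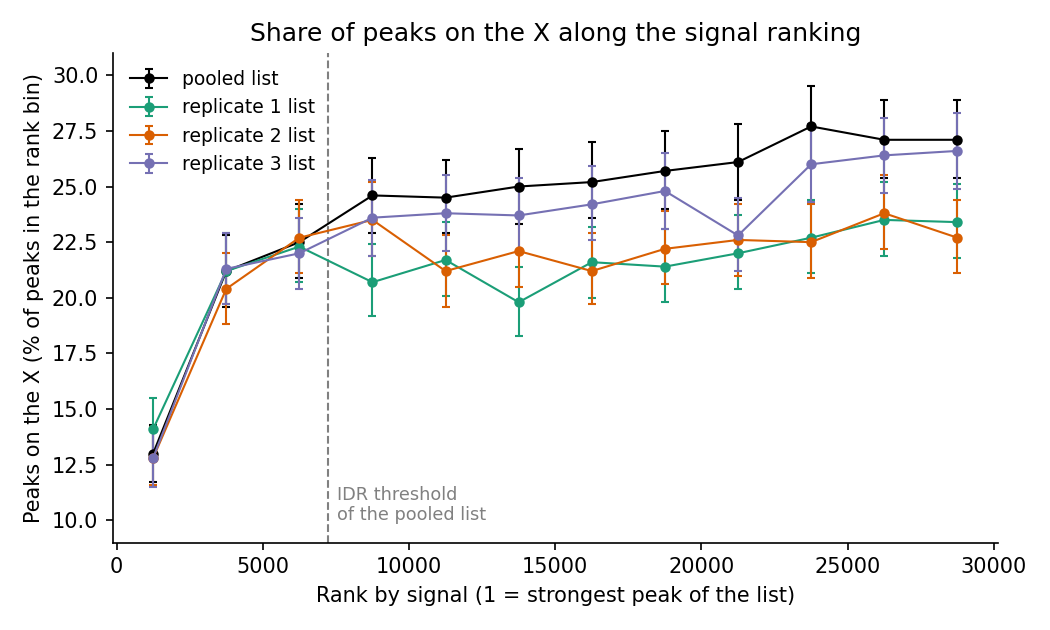
Percent of peaks on the X (vertical axis) in bins of 2500 ranks by signal value (horizontal axis), for the pooled list and each replicate list; bars are 95% Wilson intervals and the dashed line is the IDR threshold of the pooled list. All 4 lists start between 12.8% and 14.1%, reach 22.0% to 22.7% before the threshold, and end between 22.7% and 27.1%.

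Members were dense on the X, and the order of the arms was not simply X against autosomes. There were 250 members per Mb of known sequence on the X, 213 on 2L, 181 on 3L and 121 on 3R, or 167 on the 3 arms together, a ratio of 1.50. IDR peaks were close in density, with 58.2 per Mb on the X, 61.1 on 2L, 53.9 on 3L and 51.2 on 3R. In the replicate lists, with peaks more than 150 bp from any IDR summit, the X held 212, 217 and 237 per Mb in replicates 1, 2 and 3, and the 3 arms together 173, 173 and 168. The ratio was 1.30 ± 0.101 (SD, n = 3) and was above 1 in 3 of 3 replicates. Against 2L alone the replicate ratios were 0.996, 1.01 and 1.13, so the replicates did not share a direction there. The exact two-sided sign-flip permutation test over the 3 replicates gave p = 0.25. This is the smallest p this design allows, so no comparison over the 3 replicates can pass 0.05, before or after adjustment, and the replicate lists were also inputs to the pooled list.

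In the pooled list the excess was highest in introns and 3′ UTRs and nearly absent between genes. Of the members, 2992 (50.9%) had the summit in an intron, against 38.9% on the 3 arms. Between genes lay 862 (14.7%), against 26.4%. Within 500 bp of a transcription start site (TSS), called promoter here, lay 1093 (18.6%, against 21.1%), in 3′ UTRs 446 (7.59%, against 4.81%) and in coding exons 368 (6.26%, against 6.86%). The X has more intron and less intergenic sequence than the arms, 43.5% against 39.2% and 22.3% against 27.9% of its bases, so densities per Mb of each class are given next. The promoter difference of -2.50 points was -0.998 in the stronger part of the list and -1.53 with a TSS distance of 250 bp, and the coding difference turned from -0.595 to 0.328 points with one of 1000 bp.

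Per Mb of intron there were 293 members on the X, 223 on 2L, 182 on 3L and 117 on 3R. Per Mb between genes the X had 164, fewer than 2L with 202 and 3L with 176 and more than 3R with 98.0. The X-to-arms ratio was therefore 1.77 in introns and 1.04 between genes. In the replicate lists it was 1.40, 1.44 and 1.64 in introns, or 1.50 ± 0.130 (SD, n = 3, exact p = 0.25), and 0.915, 0.902 and 1.03 between genes, or 0.948 ± 0.0680 (SD, n = 3). The lowest intron ratio of a replicate stood above the highest intergenic one, and the pooled intergenic ratio turned to 0.972 in the stronger part of the list. IDR peaks on the X showed the same order, with ratios of 1.42 in introns and 0.841 between genes. Against 2L alone the intron excess was smaller, with a ratio of 1.31 in the pooled list and 1.04, 1.10 and 1.23 in the replicates.

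**Figure D2:**
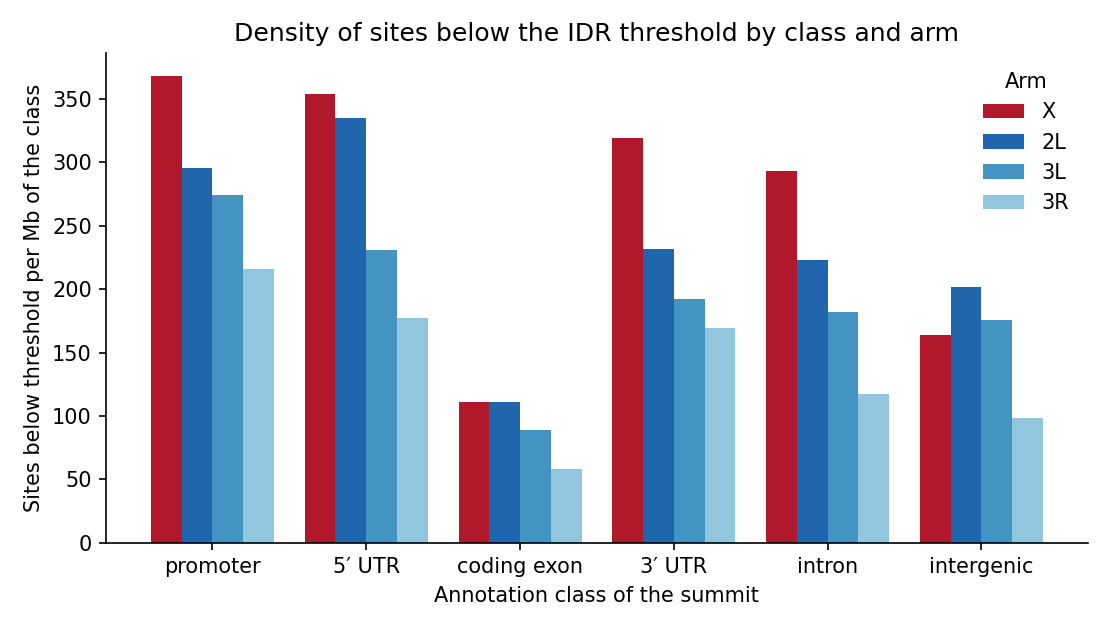
Sites below the IDR threshold per Mb of each annotation class (vertical axis) on the X, 2L, 3L and 3R; bars are counts of the pooled list divided by the length of the class, and there is 1 pooled list, so they have no replicate error. In introns and 3′ UTRs the X bar is the highest, with 293 and 319 per Mb, while between genes 2L is highest with 202 against 164 on the X.

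Promoters held 368 members per Mb on the X and 259 on the arms, a ratio of 1.42, with 1.24, 1.25 and 1.41 in the replicates. The pooled ratio in 3′ UTRs was above that of all bases, while in replicate 2 it was below. Per Mb of 3′ UTR the X had 319 members, 2L 232, 3L 192 and 3R 169, a ratio of 1.65. The replicate ratios were 1.30, 1.20 and 1.65, beside 1.22, 1.25 and 1.41 over all bases. Against 2L alone the 3′ UTR ratios of the replicates were 1.09, 1.04 and 1.41. Within 500 bp of the end of a protein-coding transcript, with promoter members left out of the count, lay 8.36% of the members. This compares with 6.99% on the arms and 8.04% on 3R alone. The IDR list leaned the same way with a ratio of 2.06 in 3′ UTRs, from 69 peaks on the X. Coding exons were sparse on every arm: the X and 2L each had 111 members per Mb of coding exon, 0.442 times the share of bases that they take on the X. Replicates did not share a direction there, with ratios of 1.11, 0.893 and 1.08.

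**Figure D3:**
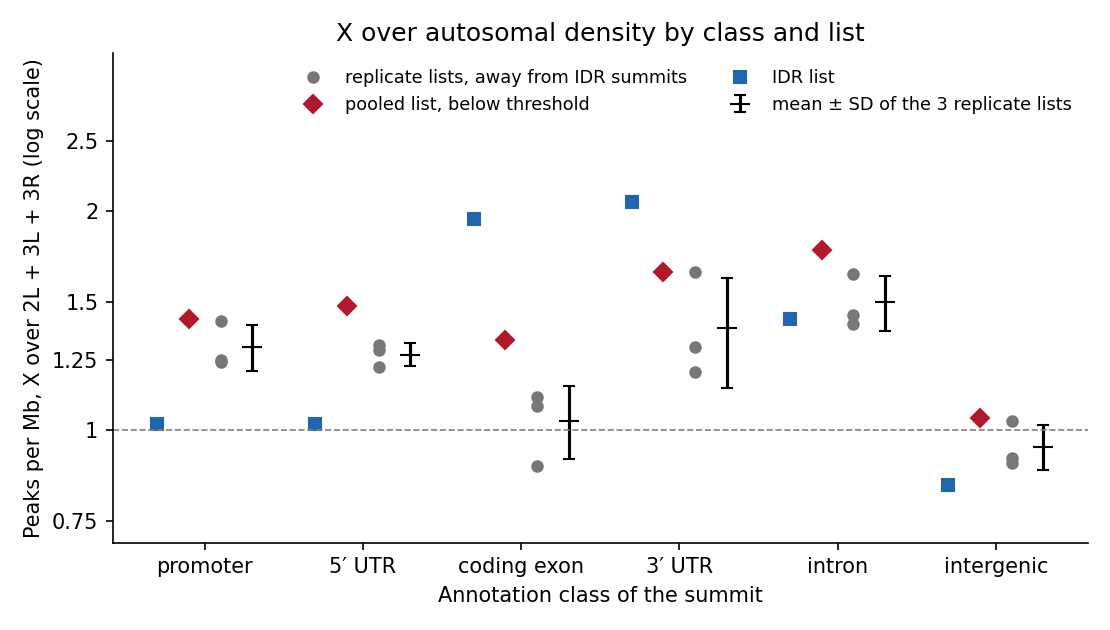
Ratio of peaks per Mb on the X to peaks per Mb on 2L, 3L and 3R together (vertical axis, log scale) for each annotation class; squares are the IDR list, diamonds the pooled sites below the threshold, circles the 3 replicate lists without peaks within 150 bp of an IDR summit, and dashes with bars the mean ± SD of the 3. In introns all 3 replicates lie between 1.40 and 1.64, and between genes they lie between 0.902 and 1.03.

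The X-to-arms ratio in introns was higher in genes longer than 5 kb than in shorter ones. In introns of protein-coding genes under 2 kb it was 0.886, from 5 members on the X, and the replicates gave 0.567, 0.782 and 1.06. In introns of genes of 2 to 5 kb it was 1.08. In introns of genes of 5 to 20 kb it was 1.54, in those of 20 to 100 kb 1.58 and in those over 100 kb 3.22. The replicate ratios for the last 3 length classes averaged 1.23 ± 0.173, 1.34 ± 0.139 and 2.74 ± 0.185 (SD, n = 3 each), above 1 in every replicate. Against 2L alone the replicates gave 0.967, 1.08 and 1.20 for 5 to 20 kb and 0.995, 1.03 and 1.17 for 20 to 100 kb, so the direction was not shared by all 3. For genes over 100 kb they gave 1.51, 1.61 and 1.95 against 2L. Long introns were not preferred among the introns themselves. Of the intronic members 43.5% lay in unbroken intron runs of at least 10 kb, which hold 49.0% of the intron bases of the X.

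In genes over 100 kb the X-to-arms ratio was lower without the sequence next to the centromere. The other length classes were not recomputed without it, so the trend across classes was not examined that way. Over whole protein-coding genes above 100 kb, members per Mb were 322 on the X, 156 on 2L, 111 on 3L and 90.1 on 3R, a ratio of 2.97, with replicate ratios of 2.45, 2.43 and 2.79. Without the 5 Mb of each arm next to the centromere the values were 333, 198, 182 and 227, and the ratio 1.65. All 20 X genes of that length held at least 1 member, while 13 of the 52 genes on the arms held none. A single gene, kirre, gave 207 of the 953 members in these X genes, and without it the X had 291 per Mb, a ratio of 2.68. For introns as a whole the ratio without the sequence next to the centromere was 1.57, with 304 per Mb on the X, 241 on 2L, 215 on 3L and 146 on 3R.

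**Figure D4:**
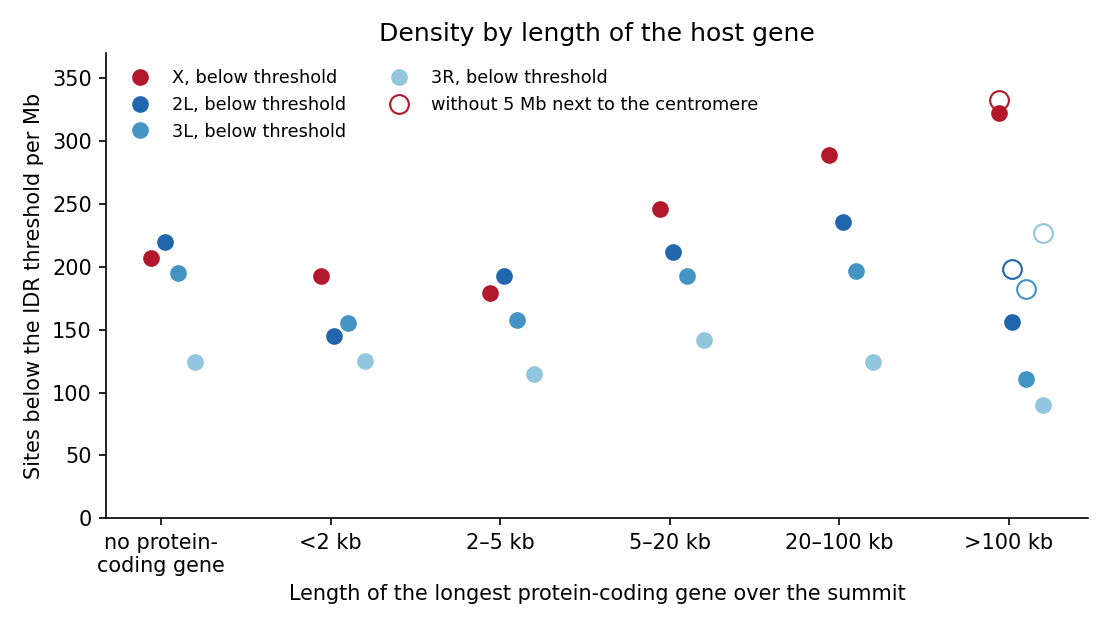
Sites below the IDR threshold per Mb (vertical axis) by the length of the longest protein-coding gene over the summit (horizontal axis) on the X, 2L, 3L and 3R; open circles leave out 5 Mb of each arm next to the centromere. In genes over 100 kb the X stands at 322 and at 333 with that sequence left out, while the other arms move from 90.1 to 156 up to 182 to 227.

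Within protein-coding genes the members lay almost evenly from start to end. Cut into 5 equal stretches from the start, the gene span held 21.4%, 19.1%, 18.9%, 19.2% and 21.4% of the 3745 members in such genes and more than 500 bp from a TSS. The corresponding shares on the arms were 22.8%, 20.7%, 19.0%, 18.0% and 19.4%. Annotated transposable elements held 0.936% of the members against 5.52% of the bases of the X, and on the arms 0.904% against 5.20%.

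The genes with the most members were long genes. The immunoglobulin-family adhesion gene kirre (X:2740384-3134532, 394 kb), needed for muscle fusion, held 207 members. Its span includes the genes w and rst, so their members are counted for kirre as well. Ten-a, a teneurin, held 88, CG1677 held 86, the cAMP phosphodiesterase gene dnc 81 and CG32816 77. The zinc-finger gene mamo held 71, and rg, an A-kinase anchor gene, and CG15465, which share their span and so their members, held 64. CG3777, which overlaps CG32816, held 52, and CG43759 held 51. Per 10 kb these genes carried 3.02 members in Ten-a to 7.34 in CG3777, against 3.00 over all X genes above 20 kb and 1.56 over such genes on the arms. The genes were picked for their member counts, so high values follow in part from that choice.

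Sites below the threshold touched more genes on the X than elsewhere. Of 2196 protein-coding genes on the X, 1307 (59.5%) had a member in the gene or within 500 bp, against 42.4% of 8817 on the arms. The difference held in each length class: 40.5% against 28.3% of genes under 2 kb, 59.2% against 44.8% of 2 to 5 kb, 81.5% against 64.7% of 5 to 20 kb and 95.5% against 76.5% of longer ones. An IDR summit lay at the promoter of 969 X genes (44.1%), against 42.5% on the arms. A member within 500 bp of a TSS and no IDR summit there was found at 470 X genes (21.4%), against 13.0% on the arms. For 154 of those 470 genes the member was recurrent.

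Among genes of sex determination and dosage compensation, 5 of 9 had a member, beside the 59.5% of all X genes. Sxl, the switch gene of sex determination, had 17 members in its 23.5 kb and 2 of them recurrent. roX1 had 4 members and roX2 none, and both had an IDR summit at the promoter. The X-counting genes sc and sisA had 2 and 1 members within 500 bp, and the X-counting genes run and upd1 had none. The dosage compensation gene mof had 1, and snf, which encodes a splicing factor, had none.

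All 19 genes of neuronal excitability and adhesion had a member, beside 95.5% of X genes above 20 kb. With overlapping genes counted once, 596 members lay within 500 bp of them. Their median length was 48.5 kb, and their spans held 3.51 members per 10 kb. kirre, Ten-a and dnc led them. The cytoplasmic ribosomal protein genes, with a median length of 1.60 kb, had a member at 10 of 14 (71.4%), beside 40.5% of X genes under 2 kb and 59.5% of all X genes. RpS5a led them with 3 within 500 bp, and RpS14a, RpL7A, RpL35 and RpL37-1 had 2 each. An IDR summit lay at the promoter of 9 of the 14 (64.3%), beside 44.1% of all X genes.

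The other lists are read against the 59.5% of all X genes with a member, 59.2% of those of 2 to 5 kb and 81.5% of those of 5 to 20 kb. Patterning and neurogenic genes, with a median length of 3.11 kb, had a member at 10 of 14 (71.4%), with 28 within 500 bp of sgg, the fly GSK3 kinase, 15 at the receptor gene Notch (N) and 7 at the BMP antagonist sog. Of the classical visible markers, with a median of 9.34 kb, 11 of 14 (78.6%) had one, with 32 at the homeobox gene ct, 15 at the actin-bundling gene f and 7 at g. Of the germline genes, with a median of 4.57 kb, 7 of 9 (77.8%) had one, led by the transcription factor gene ovo with 7, mei-218 with 3 and otu and swa with 2 each. Of the chromatin and transcription genes, with a median of 10.2 kb, 8 of 10 (80.0%) had one, with 34 at the corepressor gene Smr, 15 at Trf2, a TBP-related factor, and 10 at fs(1)h, the fly BET protein.

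Counted over whole arms, the members were spread more evenly along the X than the same class of peaks along the other arms. In 100-kb blocks the X had a median of 23.0 members, 2L 19.0, 3L 13.0 and 3R 9.00. Empty blocks numbered 11 of 235 on the X, 14 of 235 on 2L, 48 of 281 on 3L and 62 of 320 on 3R. By this count 2L was close to the X, and fewer members per block can by itself leave more blocks empty. The densest 10% of blocks held 22.8% of the members on the X and 25.1%, 32.3% and 32.6% on 2L, 3L and 3R. The densest block of the X, at 3300000 to 3399999, held 81 members over the end of dnc and the genes CG12535 and Myc. The closest spacing was shared between arms: the median distance between neighbouring members was 1678 bp on the X and 1784 bp on the arms, and 50.2% had a neighbour within 1 kb on the X, 49.7% on 2L, 51.7% on 3L and 48.4% on 3R. In the replicate lists the X-to-arms ratio of the median distance was 0.941 ± 0.0373 (SD, n = 3).

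Few members lay beside an IDR peak. An IDR summit lay within 500 bp of 361 members (6.14%), against 7.17% on the arms, and the median distance to one was 4352 bp, against 3628 bp. The peak intervals of 23 members were shared with an IDR peak.

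Only a minority recurred in every replicate, as often on the X as elsewhere. A summit within 150 bp was found in all 3 replicate lists for 854 of the 5875 members (14.5%), against 14.1% on the 3 arms and 14.3% over all main arms. With summits matched within 300 bp the X minus arms difference turned from 0.481 to -0.641 points. In 2 lists 2070 were matched, in 1 list 2490 and in none 461. Bases within 150 bp of a summit of all 3 lists make up 2.26% of the X. Of the IDR peaks on the X, 93.3% were matched in all 3. Those are the peaks of highest pooled signal, and the replicate lists were inputs to the IDR list. Recurrence went with rank: 38.6% of members at ranks 7242 to 15000 were recurrent, 5.40% at 15001 to 22500 and 0.830% at 22501 to 30000, and on the arms 35.5%, 5.17% and 0.723%.

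The recurrent members lay closer to promoters than the rest, between them and the IDR peaks. A promoter location was found for 30.6% of the 854 recurrent members, 16.6% of the other 5021 and 60.9% of the 1367 IDR peaks of the X. Of the promoter members, 68.6% of the recurrent and 56.9% of the others lay upstream of the TSS, and 84.8% of the IDR peaks. Coding exons held 2.11%, 6.97% and 1.24%. On the X the recurrent minus other difference of 14.0 points at promoters was 8.79 when matches in replicates 2 and 3 were enough. Without members overlapping an IDR interval it was 11.3. The difference of -4.86 points in coding exons was -3.08 when replicates 1 and 3 were enough. Within the stronger part of the list the differences were 7.99 and -1.76 points. These shares describe sets that rank chose in part, since promoter members made up 29.2% of ranks 7242 to 15000 and 12.1% of the last 7500 ranks. In the highest of these rank ranges the X and the arms had about the same promoter share, 29.2% and 28.8%, and in the next 15.1% and 19.4%.

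The 201 bp around recurrent members of the X averaged 38.5% G+C, around the other members 41.0% and around the IDR peaks of the X 39.4%. On the 3 arms the recurrent members averaged 39.1% and the others 41.3%. The recurrent minus other difference on the X was -2.50 points, and it rested on replicate 2: when a match in replicates 1 and 3 was enough, the difference was -0.138 points. The mean over all X members was 40.6%, against 40.9% on the arms and 42.5% over 116786 windows tiling the X.

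**Figure D5:**
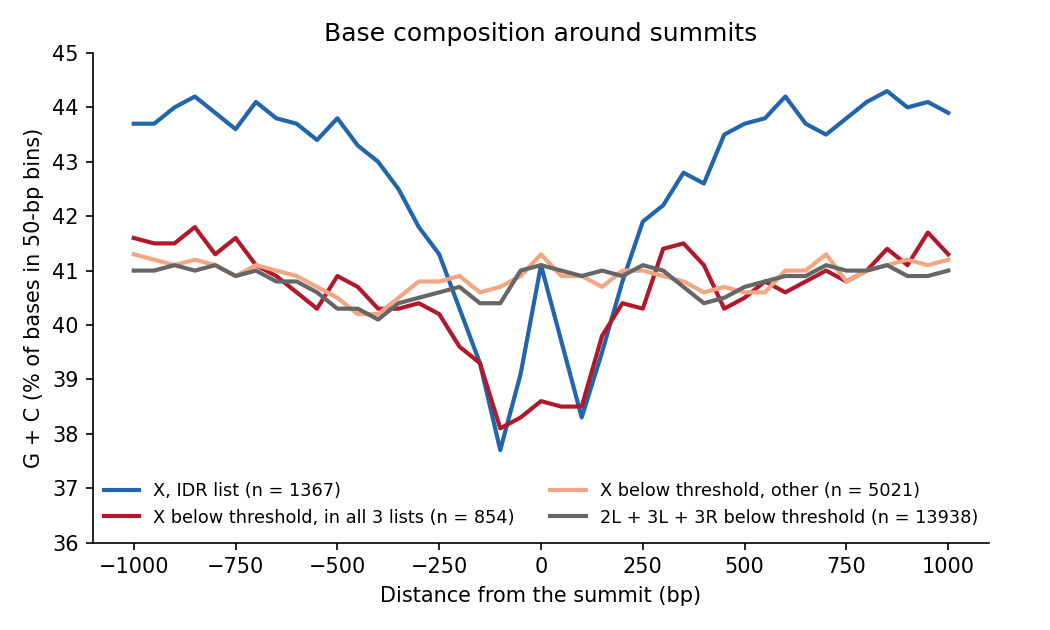
Percent of G+C in 50-bp bins (vertical axis) by distance from the summit in bp (horizontal axis) for IDR peaks of the X, recurrent and other X members, and members on 2L, 3L and 3R. Recurrent members drop from 41.6% at 1000 bp to 38.1% at 100 bp on the low-coordinate side, IDR peaks from 43.7% to 37.7%, and the other members stay near 41%.

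The recurrent members of highest signal show how differently the replicates ranked such sites. The member in the Drak intron, a gene of the death-associated protein kinase family, had a pooled signal value of 193.5 and ranked 14968, 7363 and 6974 in replicates 1, 2 and 3. That in CG44422 ranked 9308, 7666 and 8063, and that between genes near disco, a zinc-finger gene, 12586, 9916 and 7106. Of the 30000 ranks in a list, those 3 members took ranks between 6974 and 14968. The member 3270 bp from the TSS of Ten-a ranked 6432, 9506 and 7690. The member 366 bp from the TSS of l(1)G0320 ranked high in replicates 1 and 2, at 1885 and 2833, and 9017 in replicate 3, and its summit lay 199 bp from an IDR summit. The member at CG1529 was likewise 204 bp from an IDR summit and ranked 4693, 3568 and 20400. Any replicate summit within 150 bp counted as a match. At l(1)G0320 and CG1529 the matched summits may therefore belong to the neighbouring IDR peak, and the ranks may be those of that peak.

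At the promoter of GCS2alpha, a glucosidase subunit gene, the ranks were 5384, 7385 and 9130, and in the intron of mew, an integrin alpha gene, 8722, 4257 and 9755. The member 42 bp from the TSS of the pigment gene y ranked 10672, 10875 and 7175. At Mgstl, a glutathione transferase gene, the ranks were 9611, 7761 and 7294. Replicate 3 gave the best rank for some of these and the worst for others. In nAChRalpha7, an acetylcholine receptor subunit gene, they were 4130, 6664 and 15854, and in the shared intron of bbx and waw 6579, 12326 and 8050.

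The strongest members that were not recurrent were each missing from 1 list. The site near CG12507 was missing from replicate 1 and ranked 5781 and 6568 in replicates 2 and 3. The AMPdeam intron site, a site in the 3′ UTR of the T-box gene bi and one in the 3′ UTR of CkIIbeta were missing from replicate 2. Their ranks in replicates 1 and 3 were 11550 and 6737, 9145 and 7283, and 9267 and 8841. The last lay 221 bp from an IDR summit, so its matched summits may likewise belong to that IDR peak. Its nearest TSS was that of the chaperone gene Hsc70-3, 4822 bp away. The nearest TSS of the site in bi was that of CG3556.

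Simple repeats were more frequent around the X members than around members on the arms, and so were they in the X as a whole. The X minus arms differences of 3.05 points for the CA repeat and 1.01 for the GA repeat were 1.79 and 0.627 with 50 bp to each side. In the 201 bp around the summit, CACACACA on either strand was found at 9.75% of the X members and in 5.77% of the tiling windows of the X, a fold of 1.69. On the arms it was 6.70% and 3.79%, a fold of 1.77. The replicate lists gave 8.69%, 8.26% and 9.95% on the X and 6.05%, 4.83% and 6.72% on the arms, higher on the X in 3 of 3. GAGAGAGA was at 3.39% of the X members and 1.54% of X windows, a fold of 2.21, and on the arms 2.38% and 1.05%, a fold of 2.26. The A tract AAAAAAAA was at 19.0% against 15.8% on the X and 12.1% against 9.62% on the arms, and TATATATA at 5.77% against 4.25% and 3.61% against 2.68%. The higher repeat shares of X members thus came with higher shares in the tiling windows of the X, and for the CA and GA repeats the folds over windows were close on X and arms.

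In windows centred 1000 bp to either side of the X members, CACACACA stood at 6.93%, GAGAGAGA at 2.01% and the A tract at 19.7%. The first 2 were lower there than at the summits, and the A tract was not. Recurrent and other members had CACACACA at 9.60% and 9.78%, and IDR peaks of the X at 4.97%. The repeat was thus at about the same share whether a member recurred or not. Promoters made up 60.9% of the IDR peaks of the X and 18.6% of the members, so the 2 sets also differ in location.

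A promoter motif and an insulator motif, Motif 1 and TGCATACTT, had higher folds over windows on the X than the CA and GA repeats. TATCGATA, the DRE known for Dref, was at 1.70% of the X members against 0.706% of windows, with 3.98% in recurrent members, 1.31% in the others and 14.0% in IDR peaks. GGTCACACT, Motif 1, was at 0.834% against 0.248%, a fold of 3.36, with 1.99% in recurrent members, 0.637% in the others and 10.3% in IDR peaks. On the arms the fold of Motif 1 was 1.69, and the 2 folds rest on only 49 members on the X and 44 on the arms. The replicate lists held Motif 1 at 0.602%, 0.706% and 0.827% on the X and 0.407%, 0.394% and 0.449% on the arms. TGCATACTT, from sites of the insulator protein Su(Hw), was at 1.31% against 0.438%, a fold of 3.00 that was 3.04 on the arms, and AGGTGGCGC, from CTCF sites, at 0.426% against 0.175%. TGCATACTT stood at 1.52% in recurrent members, 1.27% in the others and 1.39% in IDR peaks.

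CGATA, which also lies in the DRE, was at 26.5% against 22.2%, and at 50.9% of IDR peaks. CATCNCTA, a core promoter motif, was at 1.80% against 1.35%, and CAGGTAG, the site of the early activator Zelda, at 1.16% against 1.00%. The opa repeat CAGCAGCAG was at 1.75% against 2.32% on the X, a fold of 0.757, and at 2.15% against 1.84% on the arms, a fold of 1.17. The X minus arms difference in share was -0.392 points in the pooled list and -0.00558 ± 0.0344 points (SD, n = 3) in the replicate lists. The replicate mean was 1.82% on the X and 1.82% on the arms. On the X this remained below the 2.32% of windows, and on the arms it was close to the 1.84%.

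In a count of all 8-mers, CA repeats and an A tract came first, and a TACA repeat was among those that followed. With strands collapsed, the largest gains of X members over X windows were in CACACACA, 3.98 points, ACACACAC, 3.56, and AAAAAAAA, 3.19. They were followed by ATACATAT at 2.63, TACATACA at 2.25, ACATACAT at 2.24, GAAAGAGA and CATACATA at 2.19, TAAAAAAA at 2.04 and GCACACAC at 2.03. ACACACAC and GCACACAC overlap the CA repeat, and TACATACA, ACATACAT and CATACATA are phases of a single TACA repeat. The TACA repeat was not among the 12 motifs: TACATACA was at 5.51% of the X members and 3.27% of X windows, and at 3.23% and 2.03% on the arms.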

How the data were processed

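Peak lists of Stwl ChIP-seq from 3 biological replicates, a pooled list and an IDR list were used as the authors deposited them, each in narrowPeak form. Per the text files deposited with the lists, each replicate list came from the alignments of 1 library and a control, the pooled list from all 3 libraries and the control, and the IDR list from the replicate and pooled lists. Neither the aligner nor the peak caller, their versions or the threshold is given in the sources used here. The build is dm6, per the labels. The authors' signal value and the −log10 of the q-value come from their caller, and the deposited signal was used to rank and describe peaks within a list. The depth of reads is unknown, and Wilson 95% intervals cover counting error only. Each deposited replicate list and the pooled list hold 30000 peaks.

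Peaks were represented by their summits, counted from 1, on X, 2L, 3L and 3R, with 2R as an alternative. Of the pooled peaks outside the IDR list, 3 lie off the main arms. Genes came from the Ensembl annotation BDGP6.54 and bases from the RefSeq Release 6 genome, whose arm lengths hold every peak. A summit was assigned in the order promoter (within 500 bp of a TSS), coding exon, 3′ UTR, 5′ UTR, other exon, intron and intergenic, and matched to a replicate summit within 150 bp. Motifs were searched on both strands in the 201 bp around summits and in 201-bp windows tiling the arms. The 4 listed symbols absent from the annotation were matched by unique RefSeq synonym. Replicate differences were tested by exact sign-flip permutation (n = 3). Analyses used Python 3.11.15, numpy 2.4.6, pandas 2.3.3 and scipy 1.17.1, and were tested on simulated data with planted classes, matches and motifs.

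The members, gene lists and motifs were chosen with earlier results of these data known. The genes named are those nearest to the 12 strongest recurrent members and the 4 strongest others, the 10 with the most members, up to 3 genes a list plus roX1 and roX2, and those at the peaks next to the threshold. The genes sisA, mof, run, upd1, snf, RpL35, RpL37-1 and swa fall outside that rule and were chosen after their values were seen. Genes met as neighbours or hosts of those sites (w, rst, bi, CkIIbeta, mew, waw, CG12535, Myc) and CR32658 and Nep1, met through printed windows, are named as well. Alternatives changed the TSS distance, matching distance, window, rank limit, interval overlap, arms, sequence next to the centromere and replicates.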

Additional observations from a re-analysis of the deposited data

How the results depend on the processing

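Values are X minus the 3 arms in percentage points, or X over arms for ratios. Of 111 values under alternatives for 18 results, 108 kept their direction; 3 turned, each from a main value close to no difference. With summits matched within 300 bp the difference in recurrence went from 0.481 to -0.641, with a TSS distance of 1000 bp that in coding exons from -0.595 to 0.328, and in the stronger part of the list (ranks to 18620) the intergenic density ratio from 1.04 to 0.972. Other values moved by more than their spread. In the stronger part, the share below the threshold differed by 7.07 points, recurrence by 1.88, promoters by -0.998, introns by 10.8, intergenic by -12.1 and GAGAGAGA by 1.13, and recurrent minus other members by 7.99 at promoters and -1.76 in coding exons. Without members overlapping an IDR interval, promoters differed by -1.65 and intergenic by -12.4. With 2R added, the values were 6.98 for the share below the threshold, 1.63 for the density ratio, -3.80 for promoters and -11.2 for intergenic. Without the sequence next to the centromere they were -2.11 for promoters, 13.1 for introns and -13.3 for intergenic. With a TSS distance of 250 bp promoters differed by -1.53 and intergenic by -12.2, and with 1000 bp by -3.63 and -10.9. With 50 bp to each side the GA repeat differed by 0.627 and the CA repeat by 1.79. For recurrent minus other members, matching within 300 bp gave 18.0 at promoters and -1.95 for G+C, and leaving out a replicate gave 8.79 to 12.7 at promoters, -5.20 to -3.08 in coding exons and -2.68 to -0.138 for G+C. The density ratios for introns, intergenic sequence, 3′ UTRs and long genes were added after seeing the data. The cause of these shifts was not tested. The lists hold 3 replicates and no depth, and the replicate lists also entered the pooled list.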

Other observations

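Sites below the threshold were also unequal among the autosomal arms. On 2L and 3L together they were 1.68 times as dense per Mb as on 2R and 3R together, while IDR peaks were 1.14 times as dense. The order from 2L (213 per Mb) through 3L (181) and 3R (121) to 2R (110) was kept in all 3 replicate lists. Without the 5 Mb next to the centromere, 2R had 137 per Mb and 3R 135, so the last 2 arms changed order. Replicate 1 gave 213, 179, 139 and 123 per Mb, replicate 2 gave 216, 183, 133 and 119 and replicate 3 gave 211, 181, 125 and 119. The gap between 2L and 3R was thus larger than that between the X and 2L in the pooled list and in each replicate list. These values are a description of the lists, and no cause of the order was tested.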
